A study of Homo sapiens with 9 samples.

Results

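HEK293T, an established line of human embryonic kidney origin, was profiled by ATAC-seq, an assay that marks open chromatin by where the transposase Tn5 inserts adapters. The results below concern the peaks that lie on unplaced and unlocalized sequences of the human assembly, meaning every deposited peak whose sequence name is not chromosome 1 to 22, X, Y or M. There were 990 such peaks among 194414 peaks summed over 4 lists. The control carried a CRISPR/Cas9 guide that targets no mammalian gene (2 libraries, batches 2 and 3). The knockouts lacked IGF2BP1 (3 libraries, batches 1, 2 and 3), IGF2BP2 or IGF2BP3 (2 libraries each, batches 2 and 3), 3 related proteins that bind RNA. No group received another treatment. Each knockout was 1 clone grown from a single sorted cell after transient transfection with plasmids that express 3 guides, so genotype and clone are confounded and cannot be told apart. Each group is 1 list of peak positions with no height, score or value per library. No spread between replicates, and no value within a batch, could therefore be given, and batch 1 is behind the IGF2BP1 knockout list alone. Read depth is unknown. The edit in the targeted gene is not measured by peak positions. Below, IGF2BP1-KO, IGF2BP2-KO and IGF2BP3-KO stand for the 3 knockout lists, and values listed without names follow the order control, IGF2BP1-KO, IGF2BP2-KO, IGF2BP3-KO.

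Unplaced sequences are assembled pieces of the genome whose chromosome is not known, and unlocalized sequences are pieces tied to a chromosome without a position on it. They are known to collect what is hard to assemble, such as ribosomal DNA, satellite repeats and recently duplicated segments. Ribosomal DNA consists of repeated units in which RNA polymerase I transcribes a 45S precursor that is cut into the 18S, 5.8S and 28S ribosomal RNAs. An external transcribed spacer precedes 18S, and an intergenic spacer separates one unit from the next. A read that matches several near-identical copies can be assigned to any of them, and how such reads were treated is not given in the sources used here. Peaks in such copies are therefore uncertain as to the copy they belong to.

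The ribosomal units could be identified on 2 sequences, GL000220 (unplaced) and KI270733 (unlocalized, chromosome 22), which carry the annotated genes RNA45SN5 and RNA45SN4. The RefSeq table gives positions for these genes but does not name the scaffold, so their scaffolds are background knowledge that was checked against the peaks. Among the 38 unplaced sequences with peaks, GL000220 was the 1 sequence with a peak over the tabulated start of RNA45SN5 (105424) in all 4 lists. Among the 9 unlocalized sequences of chromosome 22, KI270733 was the 1 sequence with a peak over the start of RNA45SN4 (122273) in all 4 lists. The check is a weak one, because many of the sequences compared had no peak as far along as these positions. The last base in a peak was 990 on KI270336 (unplaced) and 41243 on KI270735 (chromosome 22). Of the sequences that can be printed, the microRNA hairpins that RefSeq places inside the same unit on chromosome 21 show what the peak before the 45S start covers and what it leaves out. The first 2 lines are the hairpin and mature form of MIR6724-4 (GRCh38.p14, plus strand, chr21:8432530-8432621), 692 to 601 bases before the 45S start of RNA45SN1. The last line is the hairpin of MIR10396B (plus strand, chr21:8436324-8436374), 3102 to 3152 bases after that start. Capitals mark the mature form in the hairpins and the seed, bases 2 to 8, in the mature form.
MIR6724-4 hairpin: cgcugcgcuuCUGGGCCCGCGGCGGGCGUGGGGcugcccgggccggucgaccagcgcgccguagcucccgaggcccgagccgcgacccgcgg
hsa-miR-6724-5p: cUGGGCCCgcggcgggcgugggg
MIR10396B hairpin: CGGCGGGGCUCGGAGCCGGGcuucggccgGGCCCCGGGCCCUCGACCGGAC

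A peak covered the MIR6724-4 hairpin in all 4 lists, and the position at the same distance before the 45S start was covered in all 4 lists at RNA45SN5 and RNA45SN4 as well. At a further copy on KI270733, marked by the 18S pseudogene RNA18SP4, that position was in 0 of 4 lists. The MIR10396B hairpin was in no peak of any list, and the matching positions at RNA45SN5 and RNA45SN4 were likewise in 0 of 4 lists. The hairpin of MIR6724-2, which RefSeq places at chr21:8249505-8249596, has the same sequence as that of MIR6724-4. These are matches of position between copies of a unit, and expression of the microRNAs was not measured.

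Unplaced and unlocalized sequences held 221 of 39194 peaks in the control list, 209 of 50917 in IGF2BP1-KO, 309 of 60262 in IGF2BP2-KO and 251 of 44041 in IGF2BP3-KO. The IGF2BP1-KO list thus held the fewest, although it was the second longest list. As a share of the list, this was 0.564% in the control (Clopper-Pearson 95% interval 0.492 to 0.643), 0.410% in IGF2BP1-KO (0.357 to 0.470), 0.513% in IGF2BP2-KO (0.457 to 0.573) and 0.570% in IGF2BP3-KO (0.502 to 0.645). The intervals cover counting error over peaks only.

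The share in IGF2BP1-KO was 0.728 times that in the control (95% interval 0.603 to 0.879, two-sided Fisher's exact test, adjusted p = 0.0032 over 6 pairs of lists by Benjamini-Hochberg). It was also below that of the other knockouts. The share in IGF2BP3-KO was 1.39 times (1.16 to 1.67) that in IGF2BP1-KO (Fisher's exact test, adjusted p = 0.0026), and the share in IGF2BP2-KO was 1.25 times (1.05 to 1.49) that in IGF2BP1-KO (adjusted p = 0.0265). IGF2BP2-KO had 0.909 times (0.766 to 1.08) and IGF2BP3-KO 1.01 times (0.844 to 1.21) the control's share, and neither ratio passed the test (Fisher's exact test, adjusted p = 0.342 and 0.926). The lower share of IGF2BP1-KO against the control was no longer called among peaks at least 500 bp wide (ratio 0.806, adjusted p = 0.152), on unplaced sequences alone (0.690, adjusted p = 0.061) or on unlocalized sequences alone (0.763, adjusted p = 0.135; all by Fisher's exact test), with the same direction in each. The higher share of IGF2BP2-KO than of IGF2BP1-KO was likewise no longer called for the 39194 widest peaks of each list (ratio 1.276), peaks at least 500 bp wide (1.203), unplaced sequences (1.254) or unlocalized sequences (1.245), with adjusted p = 0.0626, 0.158, 0.179 and 0.145 by Fisher's exact test. That of IGF2BP3-KO over IGF2BP1-KO was not called for peaks at least 500 bp wide (1.325, adjusted p = 0.0548) or on unplaced sequences (1.351, adjusted p = 0.107, Fisher's exact test). These tests compare lists of peaks and not genotypes, since peaks are no replicates and neighbouring peaks are not independent. IGF2BP1-KO alone includes batch 1, whose part in the result was not tested.

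**Figure D1:**
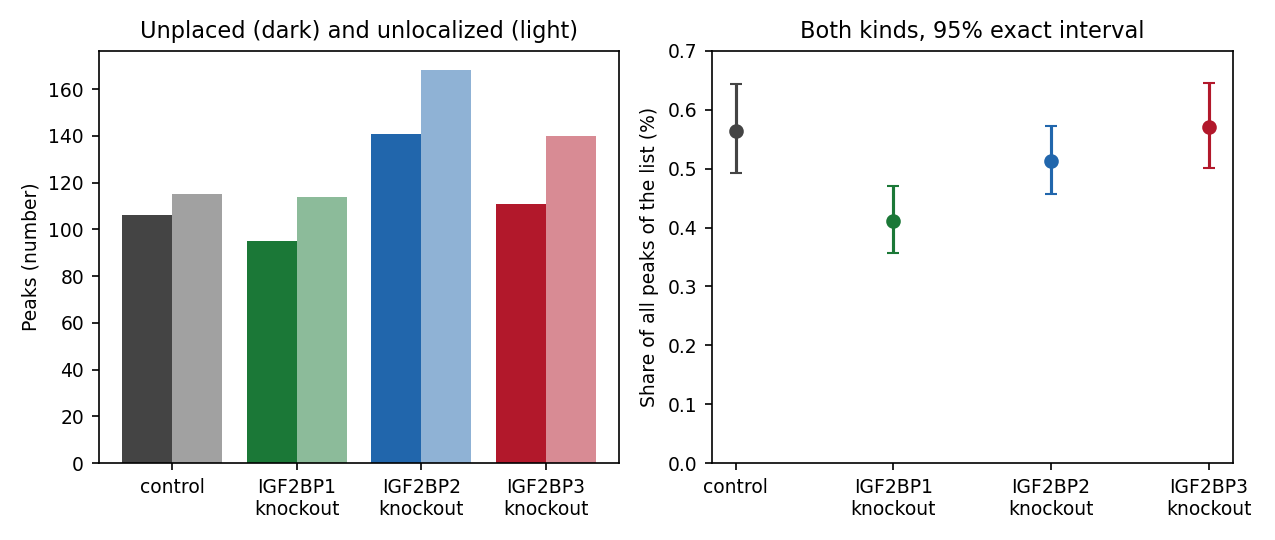
Left, the number of peaks on unplaced (dark bars) and unlocalized (light bars) sequences in each of the 4 lists. Right, their share of all peaks of the list in percent, with the exact 95% interval over peaks as bars; the IGF2BP1-KO point lies lowest, at 0.410%.

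Both kinds of sequence contributed to the counts. Unplaced sequences held 106 peaks in the control, 95 in IGF2BP1-KO, 141 in IGF2BP2-KO and 111 in IGF2BP3-KO. Unlocalized sequences held 115, 114, 168 and 140 in the same order. Among unlocalized sequences, those of chromosome 14 carried most peaks (188 summed over the lists), followed by those of chromosome 22 (145), chromosome 17 (68) and chromosome 1 (62).

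Peaks were found on 74 sequences, 38 unplaced and 36 unlocalized. In all 4 lists peaks were present on 57 of these sequences, which held 953 of the 990 peaks. The 10 sequences with most peaks held 503 peaks, or 50.8%, and this portion was 52.9% in the control, 49.8% in IGF2BP1-KO, 48.5% in IGF2BP2-KO and 52.6% in IGF2BP3-KO. At the other end, 12 sequences had exactly 1 peak in each list.

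GL000225, assigned to chromosome 14, carried more peaks than any other sequence in every list. It held 31 peaks in the control, 27 in IGF2BP1-KO, 39 in IGF2BP2-KO and 41 in IGF2BP3-KO, or 14.0%, 12.9%, 12.6% and 16.3% of the peaks on these sequences. Its peaks covered 22.7, 24.99, 27.2 and 27.1 kb, and the widest was 1816, 1834, 1748 and 1639 bp, in the same order. IGF2BP1-KO therefore had the fewest peaks on it but more covered bases than the control, with a median width of 757 bp against 609 bp.

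The ribosomal sequences GL000220 and KI270733 ranked next with GL000216. GL000220 held 16 peaks in the control, 12 in IGF2BP1-KO, 18 in IGF2BP2-KO and 13 in IGF2BP3-KO, covering 15.7, 13.3, 15.8 and 14.2 kb with widest peaks of 1577, 1506, 2561 and 1560 bp. KI270733 held 13, 11, 16 and 12 peaks in the same order, covering 12.6, 13.2, 13.2 and 12.6 kb with widest peaks of 2407, 3123, 2465 and 3129 bp. Together they accounted for 13.1% of the control's peaks on these sequences, and for 11.0%, 11.0% and 9.96% in the 3 knockouts in numeric order. GL000216 (unplaced) held 13, 10, 16 and 15 peaks over 8.09, 8.22, 10.4 and 9.73 kb, and its widest peak was nearly the same in each list at 1251, 1254, 1257 and 1257 bp.

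The remaining 6 of the 10 held fewer. GL000195 (unplaced) had 11 peaks in the control, 8 in IGF2BP1-KO, 11 in IGF2BP2-KO and 8 in IGF2BP3-KO, over 7.76 to 9.97 kb, with a widest peak of 2637 to 2739 bp. KI270744 (unplaced) had 7, 8, 13 and 8 peaks in that order, over 5.19 to 8.06 kb, with a widest peak of 1411 to 2014 bp. GL000205 (chromosome 17) had 8, 9, 12 and 6 peaks over 6.94 to 11.0 kb. In each of these 3 sequences IGF2BP2-KO, the longest list, held the most peaks or shared the highest count. KI270734 (chromosome 22) had 7, 7, 9 and 9 peaks over 4.68 to 6.15 kb, with a widest peak of 1281 to 1489 bp. GL000214 (unplaced) had 6, 6, 9 and 10 peaks over 5.33 to 7.72 kb, with a widest peak of 1245 to 1497 bp. KI270736 (chromosome 22) had 5, 6, 7 and 10 peaks over 5.27 to 7.85 kb, with a widest peak of 2068 to 2225 bp. On GL000225, GL000214 and KI270736 the highest count was in IGF2BP3-KO.

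**Figure D2:**
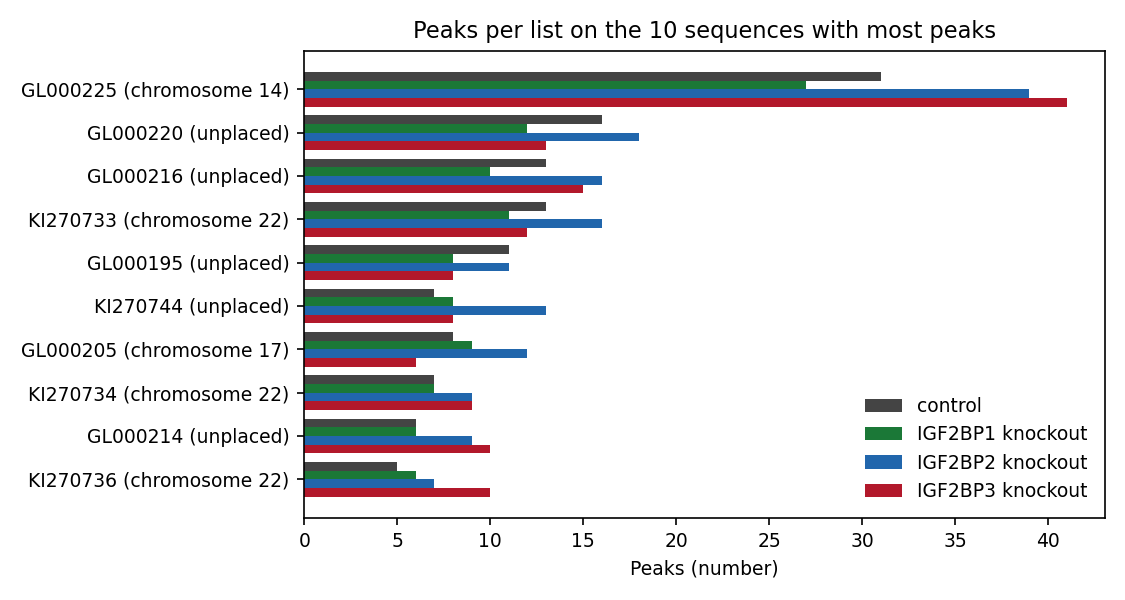
Number of peaks on each of the 10 unplaced or unlocalized sequences with most peaks, 1 bar per deposited list. GL000225 stands first in every list, with 27 to 41 peaks, and the next sequence, GL000220, has 12 to 18.

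The sequences differ little in which list holds them. KI270725 (chromosome 14) was the 1 sequence with peaks in all 3 knockout lists (1, 2 and 1 peaks) and none in the control. KI270340 (unplaced) was the 1 sequence with a peak in the control alone. IGF2BP2-KO alone held peaks on 7 sequences, with 8 peaks in all. Apart from the ribosomal sequences, no gene, satellite, immune receptor or duplicated class was assigned to any of these sequences, because the gene table used names 76 genes of unknown chromosome without their scaffold.

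The median width of peaks on these sequences was below that on chromosomes 1 to 22, X and Y in every list, but the chromosome median lay inside the interval of the median each time. It was 714 bp in the control (95% interval of the median 618 to 791) against 771 bp on the chromosomes, 818 bp (755 to 877) against 834 bp in IGF2BP1-KO, 621 bp (570 to 673) against 651 bp in IGF2BP2-KO and 647 bp (590 to 720) against 713 bp in IGF2BP3-KO. The order of the lists was the same on both kinds of DNA, widest in IGF2BP1-KO and narrowest in IGF2BP2-KO.

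The widest peak was nevertheless among the widest of the whole genome. It lay on GL000205, from 86572 to 90020 in the control (3449 bp), and measured 3468 bp in IGF2BP1-KO, 3427 bp in IGF2BP2-KO and 3360 bp in IGF2BP3-KO. By width it had rank 3 of 39194 peaks in the control, and rank 6, 4 and 4 in the knockouts. In the control it was wider than every peak on chromosomes 1 to 22, X and Y, whose maximum was 3437 bp.

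Peaks were also closely packed. The median gap between neighbouring peaks of 1 sequence was 5.93 kb in the control, 7.42 kb in IGF2BP1-KO, 5.62 kb in IGF2BP2-KO and 5.39 kb in IGF2BP3-KO, against 25.1 to 33.4 kb on the chromosomes. Neighbours under 5 kb apart made up 40.9%, 34.0%, 45.6% and 47.6% of the gaps in that order, against 8.53 to 10.9% on the chromosomes. Only sequences with at least 2 peaks give a gap, and short sequences cannot give a long one.

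Each knockout list was then compared with the control list, a peak being shared when it had at least 1 bp in common with a peak of the other list. Of the 209 peaks of IGF2BP1-KO, 31 (14.8%, Clopper-Pearson 95% interval 10.3 to 20.4) had no control counterpart, against 31.2% of all peaks of that list. In the opposite direction, 40 of 221 control peaks (18.1%, 13.3 to 23.8) had no counterpart in IGF2BP1-KO, against 10.1% over all control peaks. Relative to the whole lists, IGF2BP1-KO thus had fewer unshared peaks on these sequences, and the control more.

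The other knockouts lay nearer to their lists. In IGF2BP2-KO, 113 of 309 peaks (36.6%, 31.2 to 42.2) had no control counterpart, against 40.2% of all its peaks, and 26 of 221 control peaks (11.8%, 7.83 to 16.8) had none in that knockout, against 8.8%. In IGF2BP3-KO, 61 of 251 peaks (24.3%, 19.1 to 30.1) had no control counterpart, against 27.2%, and 33 of 221 control peaks (14.9%, 10.5 to 20.3) had none in that knockout, against 18.5%. These 4 background percentages lie inside the intervals, so the shares are near those of the whole lists. Unshared peaks were narrow in every comparison, with a median width of 575 bp against 868 bp for shared peaks in IGF2BP1-KO, 465 against 755 bp in IGF2BP2-KO and 470 against 764 bp in IGF2BP3-KO. All 3 comparisons use the same control list. Among peaks at least 500 bp wide, 7.10% of the control peaks on these sequences (3.596 to 12.3) had no counterpart in IGF2BP1-KO, against 6.996% of all control peaks of that width, so the excess on the control side was not seen there. The lower share on the other side was, with 18.2% of IGF2BP1-KO peaks (12.8 to 24.7) against 34.3% over the whole list. With each list cut to its 39194 widest peaks, which removes narrow peaks from the knockouts and none from the control, control peaks without a counterpart made up 39.8% against 23.1% over all peaks (IGF2BP1-KO), 35.3% against 26.9% (IGF2BP2-KO) and 22.6% against 23.8% (IGF2BP3-KO). The intervals of these control-side shares were 33.3 to 46.6, 29.0 to 42.0 and 17.3 to 28.7 in that order. Under that cut the background for IGF2BP2-KO thus lay outside its interval, as did that for IGF2BP1-KO. Unshared peaks of IGF2BP1-KO made up 10.3% under that cut (5.91 to 16.5), against 23.8% over all its peaks kept. Those of IGF2BP2-KO made up 22.7% (16.9 to 29.4), against 26.6%, and those of IGF2BP3-KO 17.7% (12.8 to 23.57), against 23.64%.

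Overlapping peaks of the 4 lists were merged into 353 regions, of 71597 regions genome-wide. Of these, 154 were in all 4 lists (43.6%, 38.4 to 49.0), against 41.5% of all regions. In all 3 knockouts and not the control there were 11 (3.12%, 1.57 to 5.51), against 6.88%. In the control alone there were 10 (2.83%, 1.37 to 5.15), against 1.98%, which lies inside the interval. Regions in IGF2BP1-KO alone numbered 3 (0.850%, 0.176 to 2.46), against 6.03% of all regions, and 14 regions were in every list but that one (3.97%, 2.18 to 6.56), against 1.35%. Both shares lie on the same side as the lower count of peaks in that list and are not independent of it. After cutting every list to its 39194 widest peaks, 37 of 280 regions were held by the control alone (13.2%, against 7.85% of all regions under that cut), and the knockouts jointly held 4 that the control lacked (1.43%, against 3.94%).

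The widest region held by all 4 lists was the one on GL000205 described above. Next were GL000195 from 30413 to 33166, with peaks of 2647 bp in the control, 2739 bp in IGF2BP1-KO, 2637 bp in IGF2BP2-KO and 2680 bp in IGF2BP3-KO, and the 45S start on KI270733 from 121312 to 124575. The others were KI270333 from 21 to 2494, where all 4 peaks end at base 2494, and KI270736 from 179492 to 181744. Ranked by the smallest width over the lists that hold them, as in each class here, the regions in all 3 knockouts without a control peak were led by that on GL000225 from 70455 to 71280, with peaks of 771, 826 and 802 bp in the 3 knockouts in numeric order. It was followed by KI270754 from 31577 to 32497 (749, 881 and 921 bp), KI270728 from 232192 to 233183 (843, 992 and 595 bp), KI270743 from 156077 to 156875 (575, 799 and 566 bp) and KI270733 from 12085 to 12848 (741, 663 and 502 bp). The widest control peaks absent from all knockouts were on KI270340 from 373 to 1344 (972 bp), GL000195 from 80284 to 80893 (610 bp), KI270721 from 53095 to 53668 (574 bp), KI270742 from 73928 to 74424 (497 bp) and KI270733 from 113586 to 114050 (465 bp). All regions in the control alone were thus narrower than 1 kb, as were those named for the 3 knockouts without the control. Those named for all 4 lists were wider than 2 kb. The named regions were picked as the widest of their class.

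Along the ribosomal unit, the beginning of the 45S precursor carried a peak in every list at RNA45SN5 and RNA45SN4, and also at the placed copies RNA45SN1, RNA45SN2 and RNA45SN3 on chromosome 21. For RNA45SN5 and RNA45SN4 this is not a separate result, since a peak over the start had been the check of their scaffolds. The chromosome 21 units were not chosen that way. At RNA45SN5 (GL000220) the peak ran from 104578 to 105972 in the control, 846 bases before to 548 bases after the start. It ran from 104463 to 105843 in IGF2BP1-KO, from 104538 to 105896 in IGF2BP3-KO and from 104463 to 107023 in IGF2BP2-KO. In IGF2BP2-KO it was 1 peak of 2561 bp, where the other lists had a separate peak over the external transcribed spacer. That peak ran from 106244 to 107166 in the control, 106123 to 107476 in IGF2BP1-KO and 106163 to 107722 in IGF2BP3-KO.

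At RNA45SN4 (KI270733) promoter and spacer lay under 1 peak in every list. It ran from 121430 to 123836 in the control, 121312 to 124434 in IGF2BP1-KO, 121336 to 123800 in IGF2BP2-KO and 121447 to 124575 in IGF2BP3-KO. The IGF2BP1-KO and IGF2BP3-KO peaks, of 3123 and 3129 bp, were longer than those of the control (2407 bp) and IGF2BP2-KO (2465 bp), mainly on the spacer side.

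The spacer-side end of this accessible stretch had one order in all 5 complete units, nearest to the 45S start in IGF2BP2-KO, then the control, then IGF2BP1-KO and IGF2BP3-KO. At RNA45SN5 it lay 1599 bases after the start in IGF2BP2-KO, 1742 in the control, 2052 in IGF2BP1-KO and 2298 in IGF2BP3-KO. At RNA45SN4 the distances were 1527, 1563, 2161 and 2302 bases in that order. Over the 3 units on chromosome 21 they were 1564 to 1605 in IGF2BP2-KO, 1622 to 1838 in the control, 1838 to 1942 in IGF2BP1-KO and 1907 to 2264 in IGF2BP3-KO. Near-identical units can share reads, so these are not 5 separate observations, and no test was made. The median peak width on the chromosomes was 651 bp in IGF2BP2-KO, 771 bp in the control, 834 bp in IGF2BP1-KO and 713 bp in IGF2BP3-KO. Whether peak width in a list has a part in the order of these ends was not tested. The further copies on these sequences, marked by the pseudogenes RNA18SP3 (GL000220) and RNA18SP4 (KI270733), did not keep the order throughout. There the ends lay at 1843 and 1847 bases in the control, 1810 and 1841 in IGF2BP1-KO, 1597 and 1848 in IGF2BP2-KO and 2298 and 2896 in IGF2BP3-KO, counted from the start implied by the 18S pseudogene. In both, IGF2BP3-KO reached farthest. The RNA18SP4 copy had no peak over the implied start in any list, whereas the RNA18SP3 copy had one in all 4.

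Within the transcribed unit, the 28S gene carried a peak in all 4 lists at all 5 complete units, near its 3′ end. At RNA45SN5 this peak lay from 117023 to 118125 in the control, 116989 to 118125 in IGF2BP1-KO, 116969 to 118110 in IGF2BP2-KO and 117050 to 118114 in IGF2BP3-KO. The 18S gene was touched less regularly, at 2 of the 5 units in the control, 3 in IGF2BP1-KO, 4 in IGF2BP2-KO and 0 in IGF2BP3-KO. At RNA45SN5 and RNA45SN4 these 18S peaks were narrow, 466 bp in IGF2BP1-KO and 378 and 359 bp in IGF2BP2-KO. The 5.8S gene had no peak in any list at RNA45SN5 or RNA45SN4, while at RNA45SN3 on chromosome 21 it had one in all 4.

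Outside the transcribed part, RNA45SN5 had an upstream peak in every list. In the control it ran from 93257 to 94133, which is 12.2 to 11.3 kb before the start. RNA45SN4 had one at nearly the same distance, from 110099 to 110896 in the control. Downstream, in the intergenic spacer, both had a peak in all 4 lists, at 28.3 to 29.7 kb after the start for RNA45SN5 in the control and at 29.5 to 30.8 kb for RNA45SN4.

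The peaks of the 2 ribosomal sequences were also laid over each other by aligning the starts of RNA45SN5 and RNA45SN4, an offset of 16849 bases. After that shift, 9 of 16 control peaks on GL000220 overlapped a peak on KI270733, as did 9 of 12 in IGF2BP1-KO, 11 of 18 in IGF2BP2-KO and 9 of 13 in IGF2BP3-KO. In the opposite direction the counts were 8 of 13, 8 of 11, 12 of 16 and 8 of 12. Between the pseudogenes RNA18SP3 and RNA18SP4 the offset was 17962 bases, so the shift does not align the sequences throughout. Some overlaps therefore join different parts of the unit. In the control, the GL000220 peak from 160928 to 161666 overlapped the KI270733 peak from 177590 to 178264. They lay 11.5 to 12.3 kb and 10.2 to 10.9 kb after the starts implied for their copies. Neighbouring GL000220 peaks could also overlap the same KI270733 peak. The counts thus do not give how many peaks recurred at the matching position. In IGF2BP1-KO the peaks over the 45S start began at the same base after the shift (104463 and 121312).

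**Figure D3:**
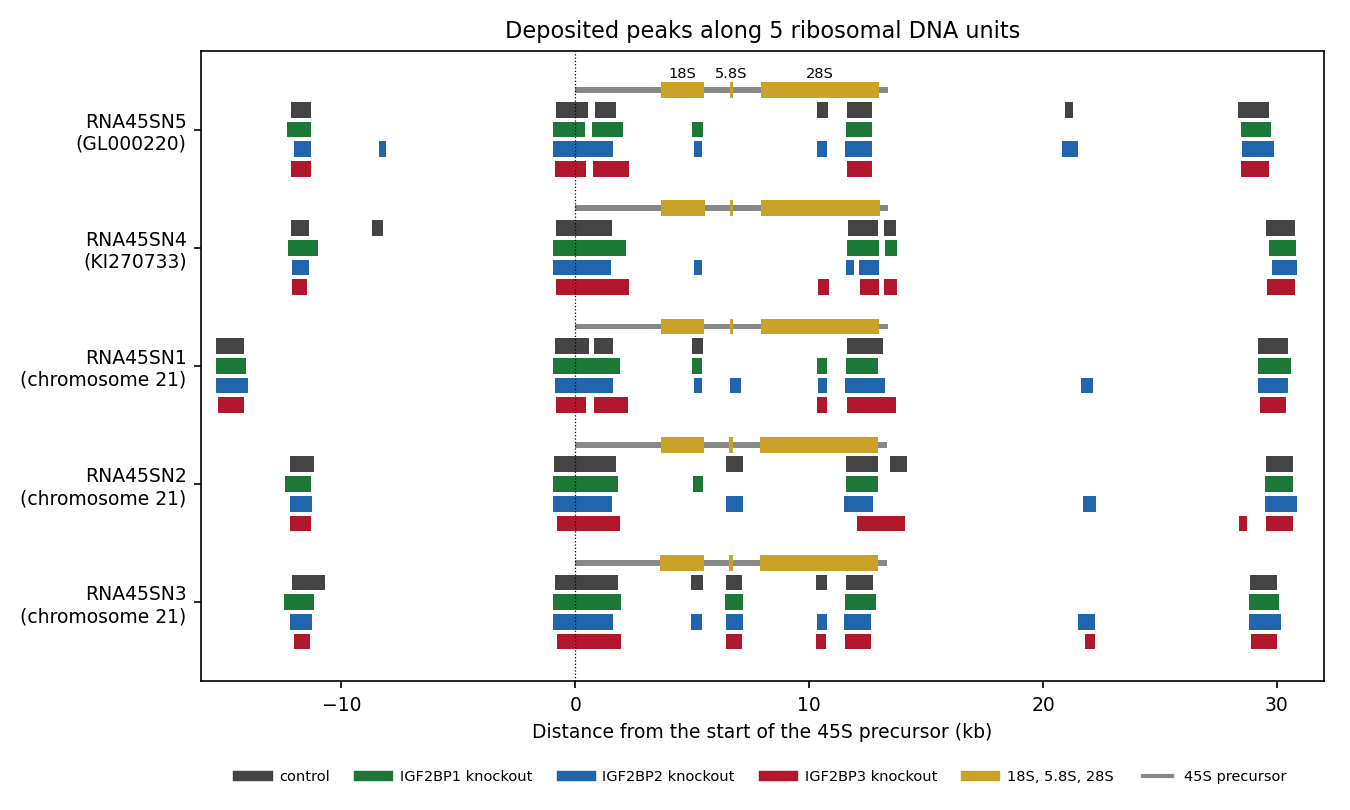
Deposited peaks (coloured bars, 1 row per list) along 5 ribosomal DNA units, by distance in kb from the start of the 45S precursor, with 18S, 5.8S and 28S drawn above each unit. In every unit and list a peak covers the start and another lies in the 3′ part of 28S, and the peak over the start or the spacer extends farther right in IGF2BP1-KO and IGF2BP3-KO than in the control. The peak over the start was also the check of the scaffolds of RNA45SN5 and RNA45SN4.

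Peak ends on these sequences lay closer together across the lists than over the chromosomes as a whole. Among the 139 regions with exactly 1 peak in each list, the median spread between the lowest and highest start was 72 bp and that of the ends 90 bp, against 143 and 145 bp over 28533 regions on the chromosomes. Starts lay within 20 bp of each other in 41 regions (29.5%), against 4.71% on the chromosomes, and both ends did so in 16 (11.5%), against 0.466%. The same comparison in regions of like width, the range between the quartiles of the 139, gave 5.797% (4 of 69) against 0.347%. Chromosome Y, with 13 regions, exceeded these sequences in close starts (6, or 46.2%) and in both ends close (3, or 23.1%). Its median end spread was smaller, at 16 bp, but its median start spread was larger, at 125 bp. Over the other chromosomes the highest share of close starts was 6.58%, on chromosome 21.

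GL000225 was the clearest case, with starts within 20 bp in 15 of its 20 regions (75.0%) and a median start spread of 11.5 bp. One of its peaks ran from 101287 to 102568 in the control, IGF2BP2-KO and IGF2BP3-KO, and from 101287 to 102566 in IGF2BP1-KO. On GL000216 a peak ran from 158649 to 159899 in the control, 158647 to 159900 in IGF2BP1-KO and 158647 to 159903 in the other knockouts. On KI270466 the peak began at base 45 in all 4 lists and ended at 1187 in the control and 1185 in the knockouts. These 3 examples were chosen after their values were seen. The peak on KI270466 starts within the first 150 bases of its sequence, as do regions with both ends close on KI270336 and KI270718. Peaks with such a start numbered 8 in the control, 10 in IGF2BP1-KO, 9 in IGF2BP2-KO and 10 in IGF2BP3-KO, and they were not left out. The edge of a sequence may fix where such a peak begins or ends, which was not tested. Without GL000225, both ends still lay within 20 bp in 11 of 119 regions (9.24%). Close starts were found on 22 of the 51 sequences with such regions, and whether they were spread evenly was not tested. Of the 10 sequences with most peaks, 4 had none, namely GL000220, GL000205, GL000214 and KI270736. The ribosomal sequences together had starts within 20 bp in 1 of 16 regions (6.25%), with a median start spread of 65 bp on GL000220 and 146.5 bp on KI270733.

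**Figure D4:**
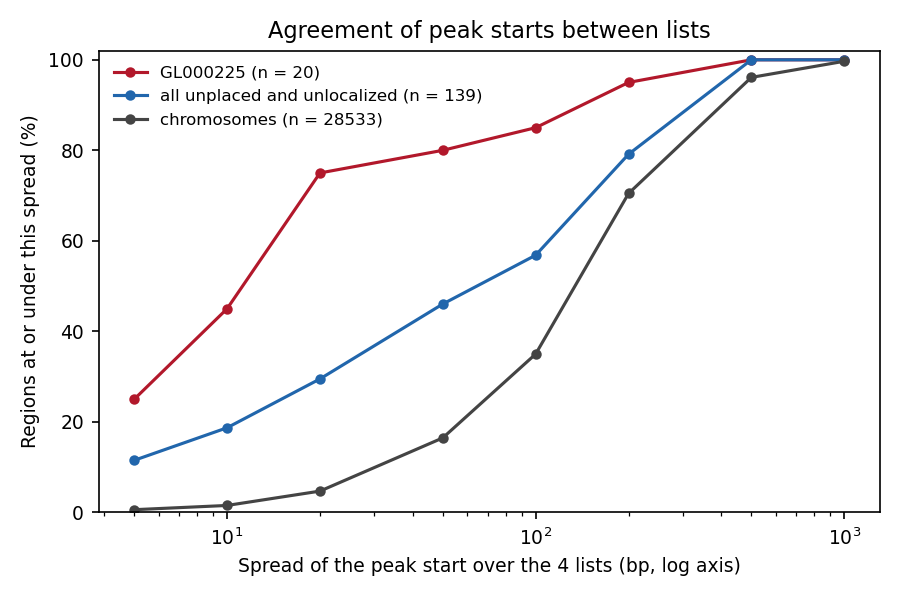
Percentage of regions (vertical axis) whose peak starts differ over the 4 lists by no more than the distance on the horizontal log axis, for GL000225, all unplaced and unlocalized sequences, and chromosomes. At 20 bp the curves stand at 75.0%, 29.5% and 4.71%.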

How the data were processed

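The labels give 9 ATAC-seq libraries in 4 groups. The authors deposited 1 list of peak start and end positions per group (other values, such as height or score, are not in the lists). The submitters' processing notes name fastp 0.24.1, BWA 0.7.17, MACS2 3.0.0, bedtools and the build GRCh38. The treatment of multiply mapped reads, the peak threshold and the way libraries were joined into 1 list are not given in the sources used here. The depth and the threshold behind each list are therefore unknown, and either can change a count of peaks.

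Positions are printed counted from 1. Peaks sharing at least 1 bp were called shared and merged into regions. Shares of peaks were tested by two-sided Fisher's exact test (SciPy 1.17.1, Benjamini-Hochberg over 6 pairs by statsmodels 0.14.6, called at an adjusted p-value of 0.05), and exact Clopper-Pearson intervals cover counting error over peaks only. The matching of peaks between lists, their merging into regions and Fisher's exact test were tried on simulated data. The other computations were not. Genes and microRNA sequences came from RefSeq tables (GRCh38.p14). The spacer-side end is the last base of a peak reaching the stretch 600 to 2100 bases after the 45S start.

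The text names the 10 sequences with most peaks, sequences found in all knockouts or the control alone, and the 5 regions of each class that are widest by their smallest width. The members and lists were chosen with earlier results of these data known. The ribosomal positions, the shift between copies and the spread of peak ends were added after seeing the data. Alternatives covered peak width, list length, merging of close peaks, the overlap rule, GL000225 and the kind of sequence.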

Additional observations from a re-analysis of the deposited data

Results flagged for a closer look

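The knockout lists, each from 1 clone, differed in their share of peaks on unplaced and unlocalized sequences; the tests compare lists of peaks and not genotypes. The share of the IGF2BP2-KO list was 1.249 times that of the IGF2BP1-KO list (Fisher's exact test, adjusted p = 0.0265), and that of the IGF2BP3-KO list was 1.388 times as high (adjusted p = 0.0026). The first was not called on unplaced (adjusted p = 0.179) or unlocalized sequences (adjusted p = 0.145, Fisher's exact test), and the second not on unplaced sequences (adjusted p = 0.107). The IGF2BP1-KO list is also the 1 list with a library from batch 1, and the part of the batch in the result was not tested.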

How the results depend on the processing

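No paired analysis was possible because the lists hold no values per library, and for the same reason no library could be left out. Over the planned and added alternatives, 115 of the values compared with their main value kept their direction and call or stayed within its interval or range, 24 moved, 9 lost their call and 3 changed direction. The lower share of IGF2BP1-KO against the control was no longer called for peaks at least 500 bp wide (ratio 0.8057), unplaced sequences (0.6899) or unlocalized sequences (0.7631), where fewer peaks entered. By alternatives added after seeing the data, the share of IGF2BP2-KO over IGF2BP1-KO was not called for the widest peaks (1.276), peaks of at least 500 bp (1.203), unplaced (1.254) or unlocalized sequences (1.245), nor that of IGF2BP3-KO over IGF2BP1-KO for peaks of at least 500 bp (1.325) or unplaced sequences (1.351). The share of IGF2BP3-KO, not called in any setting, fell below the control's among the 39194 widest peaks (0.9457), without GL000225 (0.9836) and on unplaced sequences (0.9319). Keeping the widest peaks of each list moved the median width to 986 bp in IGF2BP1-KO, 835 bp in IGF2BP2-KO and 760 bp in IGF2BP3-KO. It moved control peaks without a counterpart to 39.82%, 35.29% and 22.62% against the 3 knockouts in that order. Over all control peaks these shares were 23.1%, 26.9% and 23.8%. Unshared peaks of IGF2BP2-KO and IGF2BP3-KO moved to 22.7% and 17.7%, against 26.6% and 23.6% over all peaks of those lists. The cut left 4 regions in all knockouts without the control (1.43%, against 3.94% of all regions) and 37 in the control alone (13.2%, against 7.85%). Keeping peaks of at least 500 bp moved median widths to 873 bp in the control and 890, 810 and 831 bp in the knockouts. Control peaks without an IGF2BP1-KO counterpart moved to 7.097%, against 6.996% of all control peaks of that width. On unplaced sequences there were 71 regions in all 4 lists, 5 in all knockouts without the control and 3 in the control alone, and on unlocalized sequences 83 in all 4 lists and 6 in all knockouts without the control. These counts only divide the 154, 11 and 10 regions of the 3 classes by kind of sequence, so a lower count is not a changed result. Those made up 43.6%, 3.12% and 2.83% of the 353 regions, against 41.5%, 6.88% and 1.98% of all regions. The IGF2BP3-KO median width was 772 bp on unplaced and 584 bp on unlocalized sequences. Regions with both ends close made up 6.475% at 10 bp and 20.14% at 50 bp, distances chosen after seeing the data. Read depth is unknown, so a peak absent from a list cannot be told from one under its threshold.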
